A study of Mus musculus with 12 samples.

Results

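The nuclear-encoded genes of oxidative phosphorylation were taken as the protein-coding genes whose mouse symbol names a subunit of respiratory complexes I to IV or of ATP synthase (complex V): the Nduf a, b, c, s and v series, Sdha to Sdhd, the Uqcr genes and Cyc1, the Cox4 to Cox8 genes, and the Atp5 genes. This gave 84 of the 52636 genes listed, 36 in complex I, 4 in complex II, 9 in complex III, 18 in complex IV and 17 in complex V, and 79 of them passed the filter on low counts and were tested. The tumor line was 2153L, which derives from a genetically engineered mouse and carries the label TNBC (triple-negative breast cancer); it grew in female Balbc mice, in the fat pad of the mammary gland, and whole tumor tissue gave the RNA. The tumors carried P53ERTAM, a p53 protein that tamoxifen activates, or the empty vector (EV). Mice received the combination treatment (combo), which joins the IRE1α RNase inhibitor ORIN1001 at 150 mg/kg daily with docetaxel, a microtubule-stabilising drug, at 20 mg/kg weekly over 8 days, or vehicle. The 4 groups of 3 samples were therefore P53ERTAM combo, P53ERTAM vehicle, EV combo and EV vehicle. The labels do not say which mice were given tamoxifen or whether the 3 samples of a group came from separate mice, so that p-values measure only the spread between these samples.

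Complex I passes electrons from NADH and complex II from succinate to ubiquinone, complex III hands them to cytochrome c, and complex IV passes them to oxygen, while complexes I, III and IV pump the protons whose return through complex V drives ATP synthesis. Most subunits are encoded in the nucleus and imported, while a few core subunits of complexes I, III, IV and V are made from mitochondrial DNA. Nuclear respiratory factor 1 (NRF1), GABP (an ETS family factor) and YY1 are known to bind promoters of many of these nuclear genes.

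Most tested subunit genes were highest in EV vehicle tumors. The group mean in TMM-scaled CPM (counts scaled to library size) was highest in EV vehicle for 71 of 79 members. The mean was highest in P53ERTAM vehicle for 4 and in P53ERTAM combo for 4. It was lowest in EV combo for 39 members, in P53ERTAM vehicle for 35 and in P53ERTAM combo for 5. In 50 of the 79 members the other 9 libraries all lay below all 3 EV vehicle libraries, which was so for 11.1% of all genes tested and 13.7% of protein-coding nuclear genes. Levels are also given in TPM (counts scaled by exon length and library to a fixed total). The 84 genes summed to 15900, 14700 and 15500 TPM in P53ERTAM combo, 13300, 8010 and 13900 in P53ERTAM vehicle, 12400, 13700 and 13000 in EV combo, and 20500, 19900 and 21800 in EV vehicle. EV vehicle was thus above the other 3 groups without overlap, and P53ERTAM combo lay above EV combo and P53ERTAM vehicle.

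**Figure D1:**
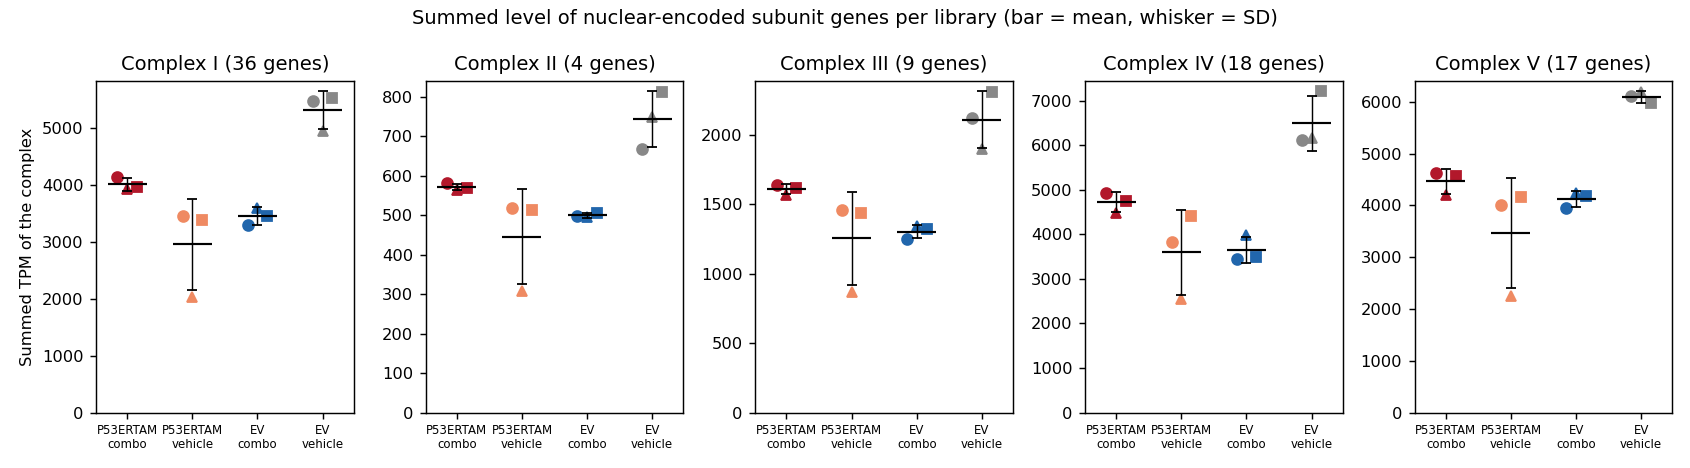
Summed TPM of the member genes of each complex (vertical axis, from 0) in each library (circle, triangle and square for replicates 1, 2 and 3), with the group mean and SD (n = 3). In each of the 5 complexes the 3 EV vehicle libraries lie above the other 9, and P53ERTAM vehicle replicate 2 is the lowest of all 12.

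In summed TPM the 5 complexes kept one order of group means. This order may depend on the scale. In TMM-scaled CPM, used for the tests, EV combo had the lowest mean for 39 members and P53ERTAM vehicle for 35. Complex I averaged 4010 ± 112 TPM in P53ERTAM combo, 2960 ± 800 in P53ERTAM vehicle, 3450 ± 158 in EV combo and 5320 ± 328 in EV vehicle (SD, n = 3 each). Complex II, which has 4 genes, averaged 572 ± 8.06, 445 ± 120, 500 ± 5.53 and 743 ± 71.3 TPM in P53ERTAM combo, P53ERTAM vehicle, EV combo and EV vehicle. Complex III averaged 1610 ± 37.3 TPM in P53ERTAM combo, 1260 ± 335 in P53ERTAM vehicle, 1300 ± 46.2 in EV combo and 2110 ± 204 in EV vehicle. In all 3 the EV combo mean lay within the wide SD of P53ERTAM vehicle, while in complexes I and II the difference between these means was larger than the SD of EV combo. Complex IV averaged 4730 ± 221 TPM in P53ERTAM combo, 3600 ± 954 in P53ERTAM vehicle, 3640 ± 294 in EV combo and 6500 ± 616 in EV vehicle. Complex V averaged 4460 ± 240 TPM in P53ERTAM combo, 3470 ± 1060 in P53ERTAM vehicle, 4120 ± 162 in EV combo and 6090 ± 111 in EV vehicle. The wide SD of P53ERTAM vehicle came with 1 library, its replicate 2. In TPM, 74 of 79 members were there the lowest of the group and 63 the lowest of all 12 libraries. The median ratio to the mean of replicates 1 and 3 was 0.572. In TMM-scaled CPM some members, such as Sdhd and Cox8a, were lower in an EV combo library than in this replicate. In complexes II, III and IV the place of the P53ERTAM vehicle sum below EV combo rested on replicate 2. Replicates 1 and 3 had 518 and 512 TPM in complex II and 1460 and 1440 in complex III, above every EV combo library. In complex IV they had 3830 and 4420 TPM, above the EV combo mean. In bulk tissue, fewer cells that express these genes and less RNA per cell cannot be told apart.

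Several properties of the libraries also differed between the groups, not all of them in the order of these levels. Library totals in P53ERTAM combo were 21914913 to 24424964 counts, against 13484873 to 19461986 in P53ERTAM vehicle, 14433361 to 17601245 in EV combo and 20431888 to 23188928 in EV vehicle, with P53ERTAM vehicle replicate 2 the shallowest. In EV combo the noncoding RNA Gm26917 took 10.7 to 11.1% of counts, and at most 1.10% in any other group. Read against protein-coding nuclear counts alone, the members held 0.788 to 0.856% in P53ERTAM combo, 0.576 to 0.781% in P53ERTAM vehicle, 0.716 to 0.803% in EV combo and 1.09 to 1.14% in EV vehicle, so that EV vehicle stayed apart. The summed TPM of 10 epithelial markers was 3750 to 4650, 2470 to 3700, 3870 to 5130 and 5470 to 6900 in these groups, and that of 10 fibroblast markers 690 to 977, 676 to 1380, 519 to 953 and 241 to 255, with no marker of either list at 0 in every library. The 12 macrophage markers summed to 3310 to 4540 TPM in P53ERTAM combo, 1310 to 1710 in P53ERTAM vehicle, 1050 to 1500 in EV combo and 1170 to 1730 in EV vehicle, so that P53ERTAM combo stood apart. The 10 endothelial markers summed to 154 to 223 TPM in P53ERTAM combo, 128 to 187 in P53ERTAM vehicle, 85 to 153 in EV combo and 38.2 to 77.1 in EV vehicle. EV vehicle was also the lowest group for 8 markers of smooth muscle and pericytes. No endothelial or macrophage marker was at 0 in every library. The part of Gm26917, of the cell type markers and of depth in the results was not tested. As a check of the labels, Trp53 differed between P53ERTAM and EV by 0.17 (log2) under vehicle and 0.40 under combo (edgeR adjusted p = 0.356 and 0.0338). Esr1, whose hormone-binding domain the fusion carries, differed by 1.74 and 1.86 (edgeR adjusted p = 0.000185 and 6.37e-05), and the p53 target Cdkn1a by 1.90 and 2.42 (edgeR adjusted p = 0.00107 and 0.000170), all higher in P53ERTAM.

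Promoter sequence played no part in the choice of the members, and each of 4 known motifs was found in a minority of their windows. RefSeq promoter windows (build GRCm38.p6, 250 bases before to 50 after a start) were matched for 68 of the 84 members, with 73 windows in all. The NRF1 motif, GCGCA and GCGC with any base between them, searched on both strands, was found in 24.7% of these windows (18 of 73), against 6.31% of 21190 windows of other protein-coding genes and 4.60% of all 32851 windows. The ETS motif CCGGAAG, which GABP binds, was in 21.9% of member windows, 11.5% of other protein-coding windows and 8.86% of all windows. The YY1 motif AAGATGGCG was in 9.59% of member windows, 1.81% of other protein-coding windows and 1.40% of all windows, and the CCAAT box CCAAT in 42.5%, 38.2% and 37.4%. The 250 bases before the start are shown for a member with a match in each complex, and for Atp5l, which passed no test below, and Cox7a2l, the 1 member higher in P53ERTAM than in EV under vehicle. Capitals mark matches to the 4 motifs on either strand, and matches are descriptions of sequence, not of binding. All 7 lie on the minus strand and are printed 5′ to 3′ toward the gene: Ndufa8 from chr2:36049339-36049588, Sdhd from chr9:50603850-50604099, Uqcrh from chr4:116075071-116075320, Cox6a1 from chr5:115348959-115349208, Atp5h from chr11:115419920-115420169, Atp5l from chr9:44920743-44920992 and Cox7a2l from chr17:83514334-83514583.
Ndufa8: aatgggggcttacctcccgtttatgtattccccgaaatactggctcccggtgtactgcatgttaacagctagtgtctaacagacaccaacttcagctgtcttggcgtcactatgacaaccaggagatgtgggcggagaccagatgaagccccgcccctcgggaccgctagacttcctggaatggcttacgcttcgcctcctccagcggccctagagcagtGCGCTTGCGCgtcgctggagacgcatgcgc
Sdhd: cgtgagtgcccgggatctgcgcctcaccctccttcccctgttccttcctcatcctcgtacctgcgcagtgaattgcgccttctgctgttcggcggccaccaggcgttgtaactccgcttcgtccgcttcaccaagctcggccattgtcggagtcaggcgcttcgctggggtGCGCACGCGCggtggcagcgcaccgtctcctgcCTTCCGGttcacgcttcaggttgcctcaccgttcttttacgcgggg
Uqcrh: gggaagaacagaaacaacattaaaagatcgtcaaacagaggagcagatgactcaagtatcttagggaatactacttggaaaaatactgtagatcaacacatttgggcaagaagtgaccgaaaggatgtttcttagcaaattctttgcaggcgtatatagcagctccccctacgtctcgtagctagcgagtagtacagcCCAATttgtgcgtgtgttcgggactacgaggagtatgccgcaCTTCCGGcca
Cox6a1: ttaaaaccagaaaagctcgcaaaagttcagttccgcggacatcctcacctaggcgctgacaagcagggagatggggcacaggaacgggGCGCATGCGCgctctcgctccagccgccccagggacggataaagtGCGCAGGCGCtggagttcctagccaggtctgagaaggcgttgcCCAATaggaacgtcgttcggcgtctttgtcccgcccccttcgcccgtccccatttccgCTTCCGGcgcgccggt
Atp5h: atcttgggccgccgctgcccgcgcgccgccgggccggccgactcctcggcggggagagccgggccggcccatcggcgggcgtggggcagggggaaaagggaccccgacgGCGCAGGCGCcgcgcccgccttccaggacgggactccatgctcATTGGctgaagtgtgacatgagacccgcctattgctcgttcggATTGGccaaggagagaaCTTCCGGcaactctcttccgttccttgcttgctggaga
Atp5l: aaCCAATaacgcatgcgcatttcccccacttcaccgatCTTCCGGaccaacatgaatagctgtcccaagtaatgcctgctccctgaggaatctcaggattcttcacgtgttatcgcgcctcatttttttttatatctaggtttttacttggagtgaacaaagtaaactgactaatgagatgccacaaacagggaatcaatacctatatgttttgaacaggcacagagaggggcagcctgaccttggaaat
Cox7a2l: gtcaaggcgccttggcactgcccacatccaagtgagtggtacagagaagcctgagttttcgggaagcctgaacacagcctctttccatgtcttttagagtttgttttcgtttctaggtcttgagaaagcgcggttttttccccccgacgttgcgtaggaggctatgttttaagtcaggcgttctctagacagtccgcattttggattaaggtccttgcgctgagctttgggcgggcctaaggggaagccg
Cox6a1 holds NRF1, ETS and CCAAT matches, Uqcrh an ETS and a CCAAT match, and the stretch of Cox7a2l none of the 4. For combo in EV tumors the median log2 fold change was -0.71 over 17 members with an NRF1 match and -0.82 over 48 without. It was -0.87 over 16 with an ETS match and -0.73 over 49 without. For YY1 it was -0.51 over 7 with a match and -0.76 over 58 without. For P53ERTAM against EV under vehicle the medians with and without a match were -0.73 and -0.92 for NRF1, -0.54 and -0.85 for ETS, and -0.74 and -0.86 for YY1. The difference between members with and without a match was not tested.

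The first question was how the combination treatment moved these genes in tumors with the empty vector. Subunit genes of all 5 complexes were lower in EV combo than in EV vehicle: 60 of 79 members were lower and 0 higher at an edgeR adjusted p below 0.05, against 25.2% lower and 14% higher of protein-coding nuclear genes and 21.1% lower and 18.8% higher of all genes. All 79 log2 fold changes were negative, from -2.05 to -0.04, with a median of -0.75, where the median protein-coding nuclear gene stood at -0.13. The 3 EV combo libraries lay below the 3 EV vehicle libraries without overlap for 68 members, against 31.1% of protein-coding nuclear genes. By complex, 28 of 36 members were lower in complex I (median log2 fold change -0.70), 2 of 4 in complex II (-0.63), 8 of 9 in complex III (-0.95), 11 of 13 in complex IV (-0.83) and 11 of 17 in complex V (-0.73). Of the 60 calls, 45 held under every alternative analysis, and with protein-coding nuclear genes alone in the fit 50 members were lower. That scaling moved the median protein-coding nuclear gene to 0.02 and the members' median to -0.60, with 78 of 79 values negative.

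In complex I, Ndufa2, an accessory subunit, had 371, 344 and 374 TPM in P53ERTAM combo, 342, 240 and 333 in P53ERTAM vehicle, 238, 236 and 226 in EV combo, and 455, 340 and 407 in EV vehicle. Its EV combo libraries lay below all other libraries but came close to P53ERTAM vehicle replicate 2, and its log2 fold change for combo in EV tumors was -0.96 (SE 0.123, edgeR adjusted p = 0.000182). Ndufc2, a subunit of the membrane arm, fell most among complex I genes, to 122 ± 10.9 TPM in EV combo, against 271 ± 64.1 in EV vehicle (log2 fold change -1.33, SE 0.228, edgeR adjusted p = 0.000842). Of the subunits that carry the redox groups, Ndufs8, which binds iron-sulfur clusters, changed by -1.11 (SE 0.177, edgeR adjusted p = 0.000583) and Ndufv1, which binds NADH and the flavin, by -0.85 (SE 0.156, edgeR adjusted p = 0.00119). Ndufs7, which holds the last iron-sulfur cluster, changed by -0.71 (edgeR adjusted p = 0.000578). Ndufs1, the largest iron-sulfur subunit, changed by -0.30 (edgeR adjusted p = 0.0740) and did not pass the test. It passed under 4 alternatives, among them the fit with the length trend removed (adjusted p = 0.0155).

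In complex II the 2 membrane anchors passed the test and the 2 catalytic subunits did not, a split that depended on the settings. Sdhd, an anchor, had 267, 278 and 263 TPM in P53ERTAM combo, 263, 163 and 257 in P53ERTAM vehicle, 194, 200 and 196 in EV combo, and 312, 372 and 381 in EV vehicle. In TPM the EV combo values lay close together and below every other library except P53ERTAM vehicle replicate 2. In TMM-scaled CPM, as log2 relative to the EV vehicle mean, they stood at -1.02, -0.99 and -1.04, below that library at -0.87. The log2 fold change for combo in EV tumors was -1.03 (SE 0.116, edgeR adjusted p = 0.000103). Sdha, the flavoprotein, changed by -0.36 (edgeR adjusted p = 0.0773) and Sdhb, the iron-sulfur protein, by -0.49 (edgeR adjusted p = 0.0556). Sdha and Sdhb each passed under 4 alternatives. Without P53ERTAM vehicle replicate 2, which is not part of the comparison, the adjusted p was 0.0267 for Sdha and 0.0153 for Sdhb. With only the groups compared in the fit it was 0.0178 for Sdhb. The difference between anchors and catalytic subunits was not tested.

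In complex III, Uqcrh, the hinge protein that helps cytochrome c bind, had 173, 194 and 175 TPM in P53ERTAM combo, 219, 164 and 193 in P53ERTAM vehicle, 103, 111 and 95.2 in EV combo, and 183, 162 and 184 in EV vehicle. EV combo alone was low, the other 3 groups overlapped, and the log2 fold change was -0.95 (SE 0.106, edgeR adjusted p = 0.000102). Uqcrq, a small subunit, averaged 53.2 ± 4.51 TPM in EV combo and 109 ± 15 in EV vehicle, and Uqcr10 146 ± 9.47 and 294 ± 36.5 TPM, with log2 fold changes of -1.21 and -1.18 (edgeR adjusted p = 0.000107 and 0.000752). Of the redox carriers and the core, the Rieske protein Uqcrfs1 changed by -0.98, cytochrome c1 (Cyc1) by -0.66 and the core protein Uqcrc1 by -0.71 (edgeR adjusted p = 0.000312, 0.00266 and 0.000623).

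In complex IV, Cox8a, the most abundant member with a mean of 1590 TPM, had 1570, 1480 and 1660 TPM in P53ERTAM combo, 1150, 763 and 1620 in P53ERTAM vehicle, 1060, 1420 and 867 in EV combo, and 2260, 2470 and 2760 in EV vehicle. EV combo and EV vehicle did not overlap, and the log2 fold change was -1.34 (SE 0.205, edgeR adjusted p = 0.000503). Cox4i1, the common form of a regulatory subunit, averaged 243 ± 16.4 TPM in EV combo and 408 ± 59.2 in EV vehicle (-0.93, SE 0.112, edgeR adjusted p = 0.000151). Cox6a1 had 1260, 1100 and 1080 TPM in P53ERTAM combo, 972, 686 and 1020 in P53ERTAM vehicle, 788, 849 and 919 in EV combo, and 1310, 1190 and 1330 in EV vehicle, and changed by -0.76 (SE 0.109, edgeR adjusted p = 0.000312). Cox7a1 had the largest change of any member at a low level, 3.57 ± 2.73 TPM in EV combo and 13 ± 6.98 in EV vehicle (-2.05, SE 0.616, edgeR adjusted p = 0.0178), and with EV combo replicate 1, EV combo replicate 3 or EV vehicle replicate 3 left out the adjusted p no longer passed (0.0660, 0.0692 and 0.0842).

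In complex V, the catalytic pair of the ATP synthase head moved together. Atp5b, the catalytic beta subunit, had 649, 564 and 632 TPM in P53ERTAM combo, 485, 265 and 572 in P53ERTAM vehicle, 584, 637 and 593 in EV combo, and 866, 960 and 1070 in EV vehicle. EV combo lay below EV vehicle by a log2 fold change of -0.85 (SE 0.170, edgeR adjusted p = 0.00192), and Atp5a1, the alpha subunit, changed by -0.75 (edgeR adjusted p = 0.00123). Atp5d, of the central stalk, averaged 223 ± 19.3 TPM in EV combo and 372 ± 13.1 in EV vehicle (-0.91, SE 0.132, edgeR adjusted p = 0.000340), while Atp5c1, its partner in the stalk, changed by -0.39 and did not pass the test (edgeR adjusted p = 0.0705). The proton-carrying c ring subunit is encoded by Atp5g1, Atp5g2 and Atp5g3, which changed by -0.91, -0.52 and -0.73 (edgeR adjusted p = 0.000380, 0.00736 and 0.00680).

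**Figure D2:**
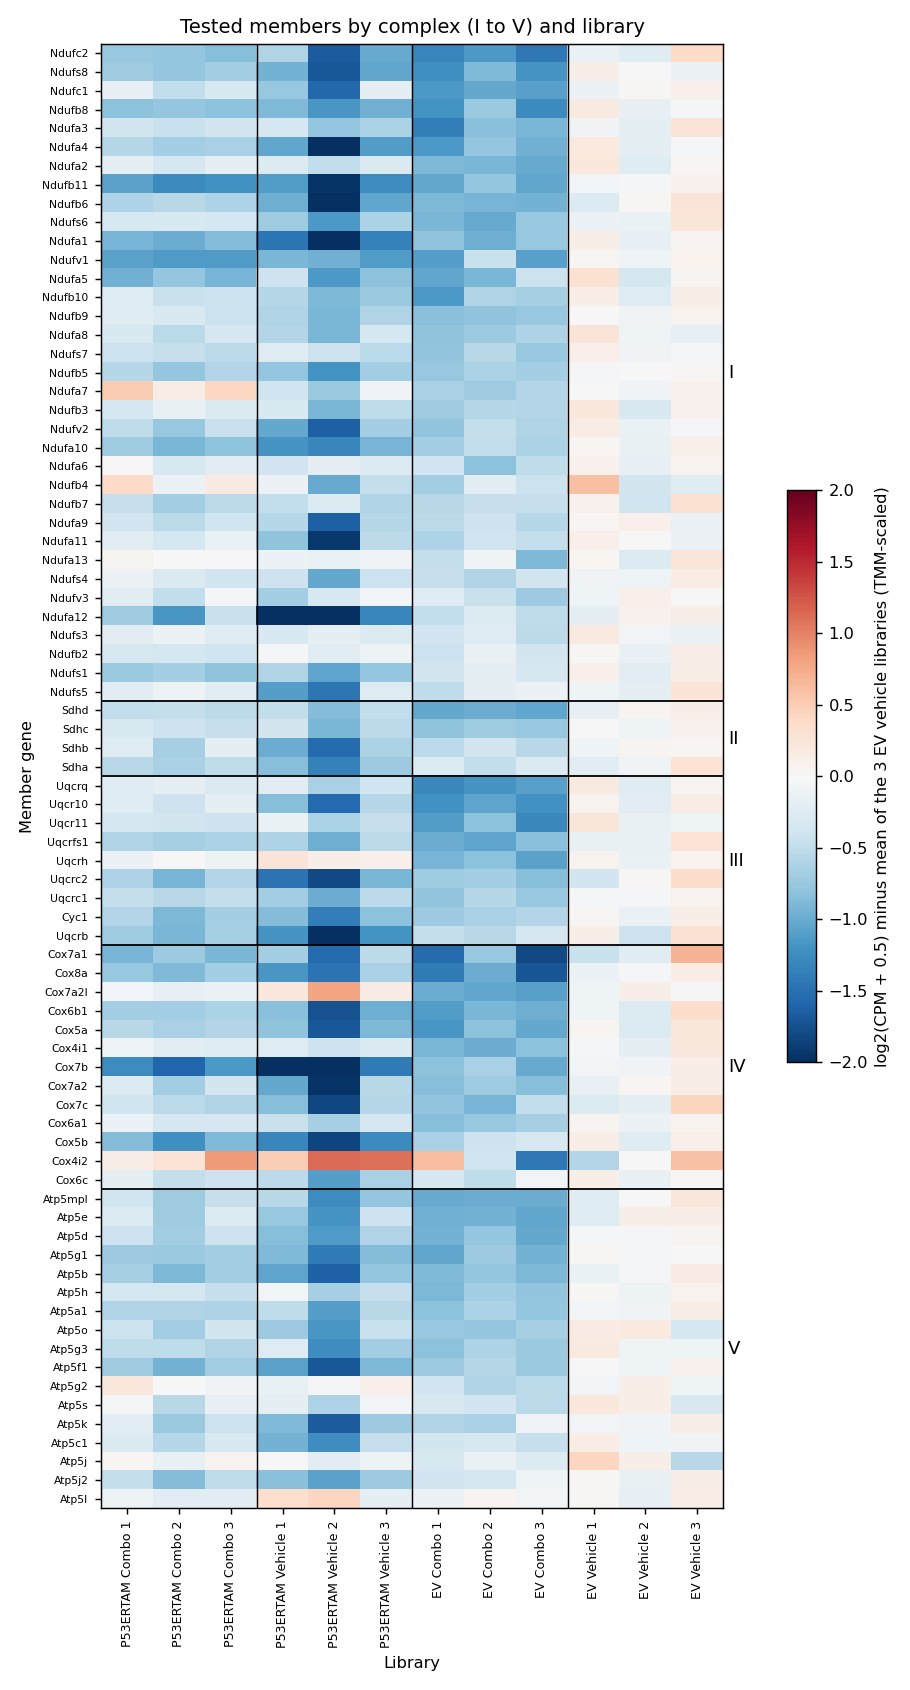
Heat map of tested members (rows, by complex and then by combo effect in EV tumors) in 12 libraries (columns); color gives log2 of TMM-scaled CPM plus 0.5 minus the mean of the 3 EV vehicle libraries, from -2 (blue) to 2 (red). Blue covers nearly all rows outside EV vehicle, and the medians over all 79 tested members in the 3 libraries were -0.39, -0.56 and -0.45 in P53ERTAM combo, -0.68, -1.15 and -0.58 in P53ERTAM vehicle, and -0.80, -0.67 and -0.75 in EV combo.

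The second question was how the subunit genes differed between the vectors without treatment. P53ERTAM vehicle against EV vehicle gave 63 of 79 members lower and 1 higher, against 24.5% lower and 15.7% higher of protein-coding nuclear genes and 19.8% and 17.9% of all genes. The median log2 fold change was -0.81, where the median protein-coding nuclear gene stood at -0.07, and 75 members had negative values. By complex, 29 of 36 members were lower in complex I, 4 of 4 in complex II, 7 of 9 in complex III, 10 of 13 in complex IV and 13 of 17 in complex V. The 3 P53ERTAM vehicle libraries lay below the 3 EV vehicle libraries without overlap for 63 members and above for 2, against 28.6% and 19.9% of protein-coding nuclear genes. Of the 64 calls in both directions, 50 held under every alternative. Without P53ERTAM vehicle replicate 2, 54 members were lower and the median was -0.65. This comparison and the combo effect in EV tumors share the EV vehicle libraries, so their likeness is not independent.

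Cox7b, a small complex IV subunit, had the largest difference between the vectors of any member. It had 134, 109 and 144 TPM in P53ERTAM combo, 71.9, 35.3 and 115 in P53ERTAM vehicle, 191, 216 and 171 in EV combo, and 286, 290 and 329 in EV vehicle. Both P53ERTAM groups lay below both EV groups without overlap, and the log2 fold change under vehicle was -2.02 (SE 0.269, edgeR adjusted p = 0.000212). Under combo it was -0.51 and did not pass the test (edgeR adjusted p = 0.129), but it passed under 3 alternatives. Ndufa12, an accessory subunit of complex I, had 40.4, 30.1 and 48.5 TPM in P53ERTAM combo, 15.3, 12.2 and 25.3 in P53ERTAM vehicle, 49.3, 58.5 and 50 in EV combo, and 54, 67.6 and 67.5 in EV vehicle. P53ERTAM vehicle was the lowest group without overlap, and the log2 fold change under vehicle was -1.81 (SE 0.235, edgeR adjusted p = 0.000145). Under combo the log2 fold change of Ndufa12 was -0.33 and did not pass the test (edgeR adjusted p = 0.25). Ndufa1, a small membrane subunit of complex I, averaged 65.7 ± 39.6 TPM in P53ERTAM vehicle and 234 ± 21.4 in EV vehicle (-1.83, SE 0.327, edgeR adjusted p = 0.00109).

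Cox5b, a matrix-facing subunit of complex IV, had 90.8, 72.3 and 89.4 TPM in P53ERTAM combo, 64.9, 36.5 and 64.9 in P53ERTAM vehicle, 111, 131 and 142 in EV combo, and 170, 133 and 167 in EV vehicle. Both P53ERTAM groups again lay below both EV groups, by a log2 fold change of -1.47 under vehicle (SE 0.170, edgeR adjusted p = 7.58e-05). Ndufa10, an accessory subunit of complex I, averaged 51.9 ± 11.3 TPM in P53ERTAM vehicle and 117 ± 9.07 in EV vehicle and had the smallest p of complex I (-1.14, SE 0.117, edgeR adjusted p = 3.84e-05). In complex II the catalytic Sdhb and Sdha changed by -1.02 and -0.97 (edgeR adjusted p = 0.00146 and 0.000529), beside -0.61 for the anchor Sdhd (edgeR adjusted p = 0.00132). In complex III, Cyc1 averaged 209 ± 61 TPM in P53ERTAM vehicle and 427 ± 33.7 in EV vehicle (-1.01, SE 0.141, edgeR adjusted p = 0.000212), while Uqcrh changed by 0.16 (edgeR adjusted p = 0.243). In complex V, Atp5g1 averaged 29.4 ± 8.43 TPM in P53ERTAM vehicle and 61.2 ± 0.290 in EV vehicle (-1.04, SE 0.134, edgeR adjusted p = 0.000144), and Atp5g2 changed by -0.03 (edgeR adjusted p = 0.873).

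Cox7a2l was the 1 member higher in P53ERTAM vehicle. Its protein links complexes III and IV into supercomplexes and is not a subunit of ordinary complex IV. Cox7a2l had 257, 244 and 244 TPM in P53ERTAM combo, 303, 367 and 287 in P53ERTAM vehicle, 141, 136 and 134 in EV combo, and 234, 276 and 242 in EV vehicle. P53ERTAM vehicle was the highest group and EV combo the lowest, neither overlapping another group, and the log2 fold change of P53ERTAM against EV under vehicle was 0.42 (SE 0.142, edgeR adjusted p = 0.0340). The adjusted p was 0.103 with only these 2 groups in the fit, 0.0849 when EV vehicle replicate 1 was left out, 0.0659 when EV vehicle replicate 3 was and 0.145 when P53ERTAM vehicle replicate 2 was, none of which passes.

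**Figure D3:**
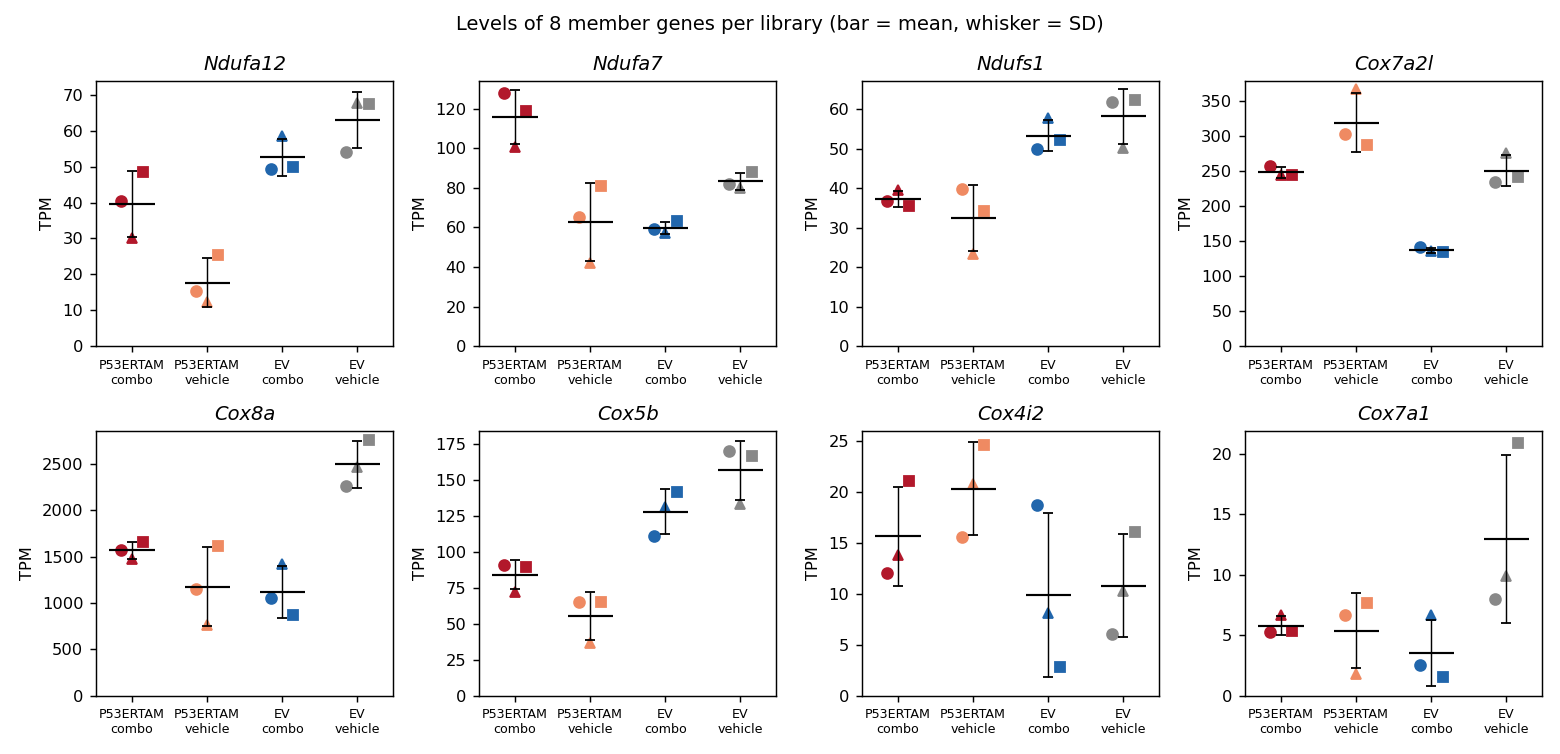
TPM of 8 members (vertical axes from 0) per library (circle, triangle and square for replicates 1, 2 and 3) with the group mean and SD (n = 3). Cox7a2l is highest in P53ERTAM vehicle, Ndufa7 in P53ERTAM combo, and Cox5b, Ndufa12 and Ndufs1 are lower in both P53ERTAM groups than in both EV groups, beside Cox8a, which is highest in EV vehicle. For Ndufa12 the difference under combo did not pass the test.

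The third question was whether the treatment had the same effect where P53ERTAM was present. P53ERTAM combo against P53ERTAM vehicle gave 2 members higher and 1 lower, against 4.11% higher and 2.23% lower of protein-coding nuclear genes and 3.30% and 2.98% of all genes, so that the members' share was near that of other genes. The median log2 fold change was 0.28, beside 0.06 for protein-coding nuclear genes, and 67 of 79 values were positive. All 3 P53ERTAM combo libraries lay above all 3 P53ERTAM vehicle libraries for 26 members and below for 3, against 21% and 13.2% of protein-coding nuclear genes. The count of higher members depended on single libraries: it was 0 when any 1 of P53ERTAM combo replicates 1 and 3 and P53ERTAM vehicle replicates 1 and 2 was left out, 18 without P53ERTAM vehicle replicate 3 and 6 without EV vehicle replicate 3. Without P53ERTAM vehicle replicate 2 the median was 0.13. DESeq2 called 10 members higher.

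The 2 higher members were complex I accessory genes. Ndufa7 had 128, 101 and 119 TPM in P53ERTAM combo, 65.4, 41.9 and 81 in P53ERTAM vehicle, 59.4, 57.1 and 63.2 in EV combo, and 81.8, 80.2 and 88.2 in EV vehicle. P53ERTAM combo was the highest group without overlap, and the log2 fold change for combo in P53ERTAM tumors was 0.75 (SE 0.155, edgeR adjusted p = 0.0189). Ndufa12 changed by 1.04 (SE 0.233, edgeR adjusted p = 0.0243), from a level in P53ERTAM vehicle that was the lowest of the 4 groups. The lower member was Cox7a2l, at 248 ± 7.99 TPM in P53ERTAM combo and 319 ± 42.1 in P53ERTAM vehicle (-0.54, SE 0.142, edgeR adjusted p = 0.0426). All 3 calls were lost without P53ERTAM vehicle replicate 1 (adjusted p = 0.0740 for Ndufa7, 0.103 for Ndufa12 and 0.0734 for Cox7a2l), P53ERTAM vehicle replicate 2 (0.0631, 0.0975 and 0.114), P53ERTAM combo replicate 1 (0.0924, 0.0946 and 0.132) or P53ERTAM combo replicate 3 (0.0891, 0.126 and 0.166). That of Cox7a2l was also lost without P53ERTAM combo replicate 2 (0.110) or any EV combo library (0.0597, 0.0597 and 0.0559), and with only the 2 groups in the fit (0.0505). In the other complexes the smallest p belonged to Sdhb (log2 fold change 0.66, edgeR adjusted p = 0.0575), Uqcr10 (0.67, 0.0598) and Atp5c1 (0.46, 0.104), none past the threshold.

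**Figure D4:**
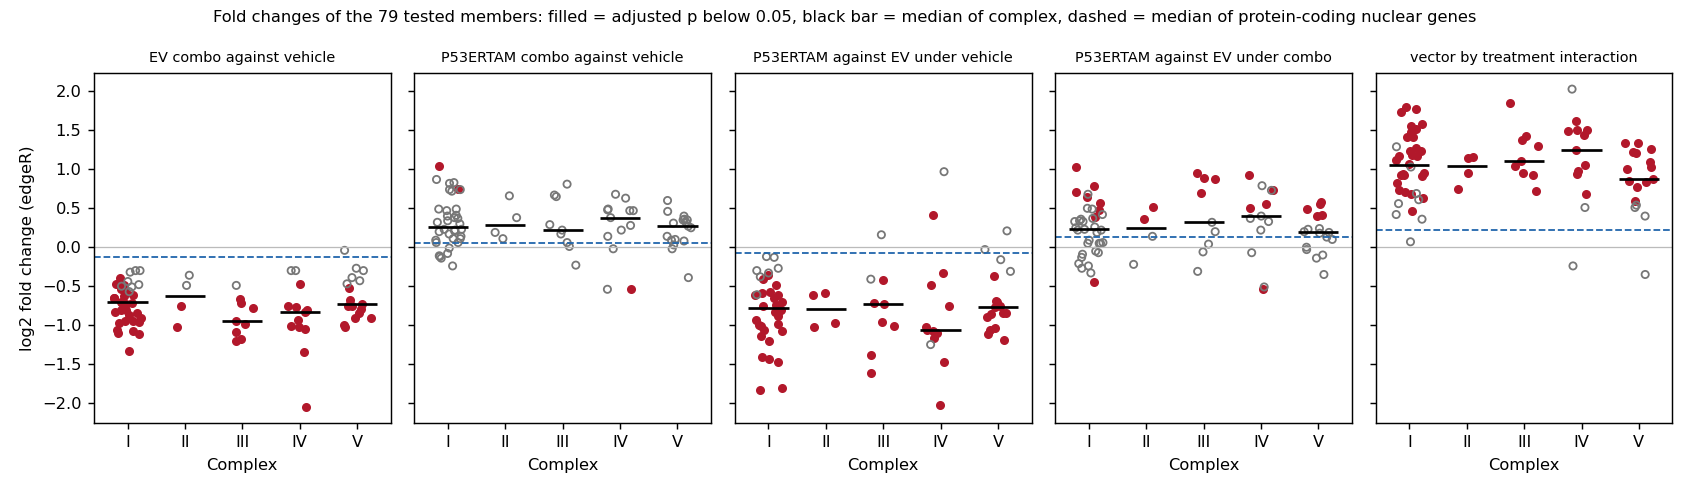
Log2 fold changes of 79 tested members (points, filled where the edgeR adjusted p was below 0.05) by complex in the 5 comparisons, with the median of each complex (black bar) and of protein-coding nuclear genes (dashed line). Complex medians lie from -0.95 to -0.63 for combo in EV tumors, from 0.22 to 0.38 for combo in P53ERTAM tumors, and from 0.87 to 1.25 for the interaction.

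Under treatment, fewer members differed between the vectors. P53ERTAM combo against EV combo gave 22 of 79 members higher and 2 lower, against 26.6% higher and 19.5% lower of protein-coding nuclear genes and 22.1% and 22.0% of all genes; the higher share is near that of other genes and the lower share below it. The median log2 fold change was 0.24, beside 0.13 for protein-coding nuclear genes. With protein-coding nuclear genes alone in the fit, the members' median was 0.11 and 16 were higher and 4 lower. Higher members were 7 in complex I, 2 in complex II, 4 in complex III, 4 in complex IV and 5 in complex V. The count was 14 without EV combo replicate 3 or P53ERTAM combo replicate 1, and of the 24 calls in both directions 13 held under every alternative. All 3 P53ERTAM combo libraries lay above all 3 EV combo libraries for 41 members and below for 8, against 37.7% and 25.9% of protein-coding nuclear genes.

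Ndufa7 had the largest difference, at 116 ± 13.5 TPM in P53ERTAM combo and 59.9 ± 3.08 in EV combo (1.03, SE 0.157, edgeR adjusted p = 0.000228). Next came the complex III gene Uqcrq, at 98.3 ± 5.09 and 53.2 ± 4.51 TPM in P53ERTAM combo and EV combo (0.95, SE 0.137, edgeR adjusted p = 0.000146), and Cox7a2l, at 248 ± 7.99 and 137 ± 3.31 TPM (0.93, SE 0.144, edgeR adjusted p = 0.000261). Uqcrh, Cox4i1, Ndufa2, Atp5g2 and Sdhd differed by 0.88, 0.74, 0.71, 0.56 and 0.52 (edgeR adjusted p = 4.19e-05, 0.000219, 0.000530, 0.00389 and 0.00273). These 8 calls held under every alternative. The 2 lower members were Cox5b (-0.53, SE 0.167, edgeR adjusted p = 0.0202) and Ndufs1 (-0.45, SE 0.128, edgeR adjusted p = 0.0124). The call of Cox5b was lost without EV combo replicate 2 (adjusted p = 0.0559), EV combo replicate 3 (0.0726) or P53ERTAM combo replicate 2 (0.0869), and that of Ndufs1 without EV combo replicate 2 (0.0527) or P53ERTAM combo replicate 3 (0.05).

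The difference between the 2 responses to treatment was tested as the interaction, the combo effect in P53ERTAM tumors minus that in EV tumors. It was positive and passed the test for 64 of 79 members and was negative and passed for 0, against 23.0% and 11.7% of protein-coding nuclear genes and 18.8% and 17.2% of all genes. The median was 1.04, beside 0.23 for protein-coding nuclear genes. Of the 64 calls, 28 were in complex I, 4 in complex II, 9 in complex III, 10 in complex IV and 13 in complex V, and 49 held under every alternative. Each of the 9 genes of complex III and each of the 4 of complex II passed. Among the members that passed, the values were largest for Uqcr10 (1.85, SE 0.280, edgeR adjusted p = 0.000668), Ndufa4 (1.80, SE 0.442, edgeR adjusted p = 0.00877) and Ndufb6 (1.77, SE 0.482, edgeR adjusted p = 0.0138), the last of which was lost without the filter on low counts (adjusted p = 0.0696). Ndufa4 is grouped with complex I by its symbol, although its protein is known as part of complex IV. The values with the smallest p were those of Ndufb9 in complex I (1.18), Sdhd in complex II (1.14), Uqcrq in complex III (1.38), Cox4i1 in complex IV (1.06) and Atp5d in complex V (1.26), with edgeR adjusted p of 0.000385, 0.000517, 0.000482, 0.000610 and 0.000600. Ndufb9 had 367, 360 and 320 TPM in P53ERTAM combo, 278, 181 and 273 in P53ERTAM vehicle, 253, 259 and 274 in EV combo, and 402, 389 and 424 in EV vehicle. The low values of both P53ERTAM vehicle and EV combo enter the interaction with the same sign, and it shares the EV vehicle libraries with the comparisons above.

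**Figure D5:**
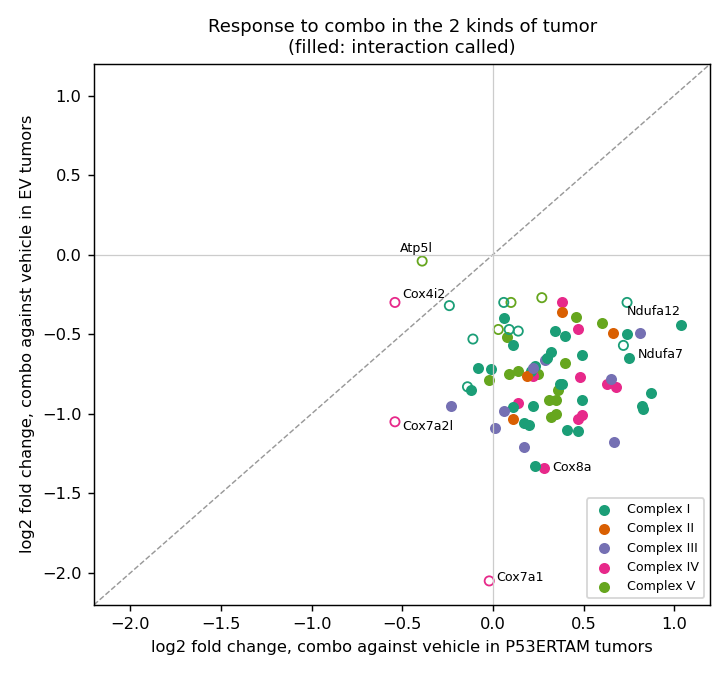
Combo effect in P53ERTAM tumors (horizontal axis, log2 fold change) and in EV tumors (vertical axis) for 79 members, colored by complex and filled where the interaction passed the test. All points lie below 0 on the vertical axis and most lie right of 0 on the horizontal axis, with 12 to the left, Cox7a2l and Cox4i2 (-0.54 each) the farthest.

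The calls in the 5 comparisons sorted the members into few patterns. A set of 32 was lower with combo in EV tumors, lower in P53ERTAM than in EV under vehicle, and positive for the interaction, among them Atp5a1, Atp5b, Atp5f1, Atp5g1, Atp5o, Cox5a, Cox6b1, Cox7a2, Cox7b, Cox7c, Cyc1, Ndufa1, Ndufa10, Ndufa8, Ndufb8, Ndufc2, Ndufs7, Ndufs8, Ndufv1, Uqcrc1, Uqcrc2 and Uqcrfs1. Not all of these calls were stable. In this set the call with combo in EV tumors was lost in 15 alternatives for Ndufa1, 14 for Ndufb6, 7 for Cox7a2, 5 for Ndufa4 and 4 for Cox7b. Another 16 had the same calls as the set of 32 and were also higher in P53ERTAM combo than in EV combo: Atp5d, Atp5e, Atp5h, Atp5mpl, Cox4i1, Cox6a1, Cox8a, Ndufa2, Ndufa3, Ndufb9, Ndufc1, Ndufs6, Sdhc, Sdhd, Uqcr10 and Uqcrq. Of these 16, Cox6a1, Ndufb9, Ndufs6, Sdhd and Uqcr10 kept all 4 calls under every alternative. The others lost a call in a comparison of the vectors under 1 or more alternatives, with the call of Cox8a under combo lost in 11, that of Atp5d under combo in 7, and those of Ndufa2 and Cox4i1 under vehicle in 11 each. A further 8 were lower in P53ERTAM vehicle and positive for the interaction but not called with combo in EV tumors: Atp5c1, Atp5k, Cox6c, Ndufa11, Ndufa9, Sdha, Sdhb and Uqcrb. Atp5g2, Ndufa6, Uqcr11 and Uqcrh were lower with combo in EV tumors, higher in P53ERTAM combo than in EV combo and positive for the interaction. Ndufa5 and Ndufb7 were lower in both comparisons with EV vehicle, Atp5j2 and Ndufs5 in P53ERTAM vehicle and in no other comparison, Cox7a1 and Ndufv3 with combo in EV tumors and in no other comparison, and Ndufs3 with combo in EV tumors and positive for the interaction. Cox5b, Cox7a2l, Ndufa7, Ndufa12 and Ndufs1 each had a pattern of their own, and 7 members were called in no comparison: Atp5j, Atp5l, Atp5s, Cox4i2, Ndufa13, Ndufb2 and Ndufb4. The pattern of Cox5b includes a call with combo in EV tumors (-0.47, edgeR adjusted p = 0.0373) that was lost in 13 alternatives.

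Complex IV has tissue-restricted forms of several subunits, and the tumors held almost only the common forms. Cox6a1 averaged 1150 ± 97.8, 894 ± 182, 852 ± 66 and 1280 ± 73.2 TPM in P53ERTAM combo, P53ERTAM vehicle, EV combo and EV vehicle, while its muscle form Cox6a2 reached at most 1.97 TPM in any library. Cox6b1 averaged 454 ± 8.42, 302 ± 117, 378 ± 29.2 and 681 ± 152 TPM in the same groups. Cox6b2, known from testis, reached at most 1.30 TPM. Cox7b2, Cox8b and Cox8c had 0 counts in all 12 libraries, which allows at most 0.0129 CPM (counts scaled to library size) over the summed libraries, counting error only. Cox7a2 averaged 359 ± 50, 214 ± 109, 292 ± 16.3 and 453 ± 44.5 TPM, against group means of 3.57 to 13 TPM for Cox7a1, the form of heart and skeletal muscle. Cox6a2, Cox6b2, Cox7b2, Cox8b and Cox8c were the 5 members that were not tested.

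Cox4i2, the form of the regulatory subunit known from lung and induced by low oxygen, had 12, 13.8 and 21.1 TPM in P53ERTAM combo, 15.6, 20.8 and 24.6 in P53ERTAM vehicle, 18.7, 8.09 and 2.85 in EV combo, and 6.03, 10.3 and 16.1 in EV vehicle. Its group means were highest in P53ERTAM vehicle and the EV groups overlapped both P53ERTAM groups, and no comparison passed the test, with a log2 fold change of 0.97 for P53ERTAM against EV under vehicle (SE 0.531, edgeR adjusted p = 0.165). Cox4i1 averaged 385 ± 21.4, 317 ± 50.9, 243 ± 16.4 and 408 ± 59.2 TPM in P53ERTAM combo, P53ERTAM vehicle, EV combo and EV vehicle. Atp5l, which encodes the g subunit of ATP synthase, had 11, 10.5 and 10.2 TPM in P53ERTAM combo, 14.7, 12.8 and 9.84 in P53ERTAM vehicle, 11.5, 13 and 12.2 in EV combo, and 11.2, 10 and 12.3 in EV vehicle, and its groups overlapped except that P53ERTAM combo lay below EV combo.

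The members differ from other genes in ways that bear on the counts. Their median exon length was 1550 bases, against 4280 for the other protein-coding nuclear genes tested, and their median of mean TPM was 121, against 20.7, while the median GC content was 50.2% and 49.9%. Across the 79 members, which are not independent of one another, the combo effect in EV tumors was less negative in longer genes (Spearman's rho 0.43): the median log2 fold change was -0.89 over 22 members under 1000 bases, -0.76 over 40 of 1000 to 3000 bases and -0.61 over 17 over 3000 bases. For P53ERTAM against EV the rho was 0.11 under vehicle and -0.46 under combo, and for the interaction it was -0.46. With mean TPM in place of length, the rho was -0.47 for combo in EV tumors and 0.28 for the interaction. For P53ERTAM against EV it was -0.14 under vehicle and 0.2 under combo. With trends of GC content and exon length removed in the fit, 56 members were lower with combo in EV tumors, 60 were lower in P53ERTAM vehicle than in EV vehicle and 61 were positive for the interaction, while 14 were higher and 5 lower in P53ERTAM combo than in EV combo. Of the members, 16 overlap a gene on the opposite strand that has over 10% of their counts, among them Ndufs1 with Eef1b2, Ndufb2 with Braf, Cox4i1 with Emc8 and Atp5d with Cbarp, and the strand setting of the counting is not given in the sources used here. The model of Atp5o also spans Donson and Cryzl1 on its own strand. Pseudogenes named after Uqcrh, Atp5c1, Atp5k and Atp5l are listed with at most 24 counts over the 12 libraries for each gene. How reads shared with such copies were counted is not given in the sources used here, and these 4 levels are uncertain. Copies listed under other names were not searched for, so the levels of other members may be uncertain in the same way.

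Lists of other mitochondrial genes, drawn up with earlier results of these data known, differed in how many of their genes were lower with combo in EV tumors. Of the 13 subunits encoded by mitochondrial DNA, 7 were tested and 6 were lower (median log2 fold change -0.93), against 21.1% of all genes. mt-Co1, the catalytic subunit of complex IV, averaged 18500 ± 911 TPM in P53ERTAM combo, 13000 ± 6200 in P53ERTAM vehicle, 9270 ± 910 in EV combo and 18600 ± 2390 in EV vehicle. Its log2 fold change was -1.19 with combo in EV tumors (edgeR adjusted p = 0.00232) and 1.07 in P53ERTAM combo against EV combo (edgeR adjusted p = 0.00353). Between the vectors under vehicle, mt-Nd6, the complex I subunit transcribed from the other strand, was higher in P53ERTAM, at 3770 ± 800 TPM in P53ERTAM vehicle and 1540 ± 245 in EV vehicle (1.33, edgeR adjusted p = 0.000204). The other mitochondrially encoded genes, mt-Co2, mt-Co3, mt-Atp6, mt-Atp8, mt-Nd3 and mt-Nd4l, were listed at or near 0 in every library and were not tested.

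Among genes that build and feed the complexes, 48 of 77 tested mitochondrial ribosomal protein genes were lower with combo in EV tumors (median log2 fold change -0.56) and 49 were lower in P53ERTAM than in EV under vehicle (-0.55), against 25.2% and 24.5% of protein-coding nuclear genes. For the interaction 52 were positive and 1 negative, against 23.0% and 11.7%. With protein-coding nuclear genes alone in the fit, 31 were positive and 5 negative. Assembly factors, which help build the complexes without staying in them, were lower with combo in EV tumors for 5 of 14 genes in complex I (median -0.22), 3 of 4 in complex II (-0.76), 3 of 6 in complex III (-0.32), 10 of 20 tested in complex IV (-0.54) and 2 of 3 in complex V (-0.55). The count for complex I was 3 without EV vehicle replicate 3 and 3 with protein-coding nuclear genes alone. That for complex IV was 6 without EV combo replicate 1, and that for complex V was 1 with protein-coding nuclear genes alone. Of 13 tricarboxylic acid cycle enzymes, which supply NADH and succinate, 8 were lower with combo in EV tumors and 11 lower in P53ERTAM vehicle; citrate synthase (Cs) changed by -0.70 and -0.43 (edgeR adjusted p = 0.000242 and 0.00332). Of 17 import genes, 11 and 8 were lower. Genes outside mitochondria moved too: 67 of 77 cytosolic ribosomal protein genes were lower with combo in EV tumors (median -0.87).

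The known regulators of these genes did not share one direction. Of 14, 5 were lower and 1 higher with combo in EV tumors, against 25.2% lower and 14% higher of protein-coding nuclear genes. The regulators' shares were near those of other genes. Tfam, which packs mitochondrial DNA and acts in its transcription, averaged 30.1 ± 1.83 TPM in EV combo and 42.9 ± 0.741 in EV vehicle (-0.69, edgeR adjusted p = 0.00171). Esrra, an orphan nuclear receptor that drives respiratory genes, averaged 71.8 ± 22.0 TPM in EV combo and 120 ± 19.2 in EV vehicle (-0.92, edgeR adjusted p = 0.00385). Nrf1, whose motif is shown above, was higher with combo in EV tumors, at 28.3 ± 0.905 TPM in EV combo and 19.1 ± 0.374 in EV vehicle (0.39, edgeR adjusted p = 0.00515), a call lost with length trends removed (adjusted p = 0.221). Ppargc1a and Myc passed no test in any of the 5 comparisons.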

How the data were processed

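Bulk tumor RNA, depleted of ribosomal RNA, was sequenced in 12 samples, 3 in each of 4 groups that the labels give. The authors deposited one table of raw read counts per gene and sample, with exon lengths; the submitters' processing notes name the build GRCm38.p5 and, without versions, the tools featureCounts, STAR, fastp and FastQC. The annotation release, strand setting and counting of read pairs are not given in the sources used here. Symbols were taken from GENCODE release M 21, with 52489 of 52636 identifiers matched and 147 not.

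Counts were filtered by expression (17970 of 31622 genes with a count were tested, holding at least 99.8% of counts), scaled by TMM (factors 0.941 to 1.05) and fitted with 4 group means in edgeR 4.0.16 under R 4.3.3 by the quasi-likelihood F-test with 8 residual degrees of freedom. Benjamini-Hochberg adjustment ran over all genes tested, with a threshold of 0.05. TPM was computed from counts and exon lengths, and its spread is that of 3 samples. Script steps were tested on simulated data. DESeq2 1.42.0 served as an alternative; others changed the scaling, the filter, the genes or groups in the fit, the length trend and the replicate block, or left out each library in turn. Figures used matplotlib 3.10.9.

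Members and gene lists were chosen with earlier results of these data known. Named members were those of smallest p per complex and comparison, those of highest TPM, the 3 largest called changes in each direction, complex IV isoforms, catalytic subunits and members called against the rest. Atp5g3, Atp5l, Ppargc1a and Myc were added after their values were seen. The individual results of 1 member are not reported here; it stays in all counts, sums and medians.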

Additional observations from a re-analysis of the deposited data

Results flagged for a closer look

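The difference between the combo effect in P53ERTAM tumors and that in EV tumors, tested as an interaction across all genes with edgeR, drew attention for 64 of 79 members, all positive. Of these, most of the members named in the text are given here. Values are log2 differences. In complex I they were 1.74 for Ndufa1, 0.93 for Ndufa10, 1.48 for Ndufa12, 1.07 for Ndufa2, 1.80 for Ndufa4, 1.41 for Ndufa7, 1.77 for Ndufb6, 1.18 for Ndufb9, 1.56 for Ndufc2, 0.63 for Ndufs7, 1.58 for Ndufs8 and 0.73 for Ndufv1. In complex II they were 0.75 for Sdha, 1.16 for Sdhb and 1.14 for Sdhd. In complex III they were 0.95 for Cyc1, 1.85 for Uqcr10, 0.93 for Uqcrc1, 1.04 for Uqcrfs1, 0.72 for Uqcrh and 1.38 for Uqcrq. In complex IV they were 1.06 for Cox4i1, 0.94 for Cox5b, 0.98 for Cox6a1, 1.49 for Cox6b1, 1.44 for Cox7a2, 1.51 for Cox7b and 1.62 for Cox8a. In complex V they were 0.84 for Atp5a1, 1.21 for Atp5b, 0.85 for Atp5c1, 1.26 for Atp5d, 1.22 for Atp5g1, 0.59 for Atp5g2 and 1.01 for Atp5o.

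Some of these calls were lost when 1 library was left out: Sdha without P53ERTAM combo replicate 3 (adjusted p = 0.0529), Ndufv1 without EV combo replicate 1 (0.0524) or P53ERTAM combo replicate 1 (0.0531), and Atp5g2 without P53ERTAM combo replicate 1 (0.0824), EV vehicle replicate 2 (0.0739), P53ERTAM vehicle replicate 1 (0.0650) or EV combo replicate 2 (0.0520). With protein-coding nuclear genes alone in the fit the adjusted p was 0.0686 for Ndufs7, 0.0653 for Sdha, 0.0995 for Ndufv1 and 0.119 for Atp5g2. Without the filter on low counts it was 0.0696 for Ndufb6, 0.0551 for Cox7a2 and 0.0567 for Atp5g2, and with the length trend removed 0.0615 for Atp5g2.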

How the results depend on the processing

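The count of members lower with combo in EV tumors (60), lower in P53ERTAM than in EV under vehicle (63) and positive for the interaction (64) stayed within 1.5 times under every alternative. With single libraries left out these counts ranged from 48 to 68, from 54 to 63 and from 56 to 66, and the opposite calls from 0 to 0, from 0 to 2 and from 0 to 1. For combo in P53ERTAM tumors, the count of higher members (2) was 4 without the low-count filter, 4 with the length trend removed and 10 by DESeq2, and 0 to 18 with single libraries left out; the count of lower members (1) was 0 with only the groups compared and 0 to 2 with single libraries left out. The 1 member higher in P53ERTAM under vehicle became 0 with only the groups compared. For P53ERTAM against EV under combo, the count of higher members (22) was 14 with GC and length trends removed, an alternative chosen after seeing the data, and 14 to 32 with single libraries left out. The count of lower members (2) was 4 with protein-coding nuclear genes alone, 5 with GC and length trends removed, 8 with only the groups compared and 0 to 3 with single libraries left out. The cause was not tested. No member named by the rule reversed a call. With protein-coding nuclear genes alone, the median of all genes tested moved from 0.13 to 0.01 for the interaction, and the members' median was 0.83.

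Of 18 same-number pairs of samples, 2 had correlated deviations over 0.1 (range -0.149 to 0.211). Pairs of different number reached 0.152 and -0.262. Deviations from means of 3 samples cannot settle whether replicate numbers pair the samples. With the replicate block, 59 members were lower with combo in EV tumors, 62 were lower in P53ERTAM under vehicle, 64 were positive for the interaction, and 0 were lower with combo in P53ERTAM tumors. The fit of only the groups compared does not exist for the interaction. Groups of 3 libraries limit what could be detected.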

Other observations

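A pair of mitochondrial genes that the symbol rule leaves out differed between groups. Ndufa4l2, a relative of Ndufa4 known to be induced by low oxygen, had 20.7, 17.4 and 22.7 TPM in P53ERTAM combo, 17.6, 34.5 and 23.5 in P53ERTAM vehicle, 10.6, 7.45 and 8.22 in EV combo, and 3.08, 5.35 and 2.67 in EV vehicle. The P53ERTAM groups lay above the EV groups, with a log2 fold change of 2.84 under vehicle (SE 0.371, edgeR adjusted p = 0.000150), the opposite direction to most subunit genes. Ucp2, a carrier of the inner mitochondrial membrane, was lower with combo in EV tumors (log2 fold change -1.07, SE 0.137, edgeR adjusted p = 0.000182) and higher in P53ERTAM combo than in EV combo (1.19, SE 0.137, edgeR adjusted p = 3.2e-05).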
